A study of Mus musculus with 8 samples.

Results

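The 10 genes described here encode small leucine-rich proteoglycans and other matrix proteins of nervous tissue: Ogn, Dcn, Lum, Bgn, Fmod, Matn2, Matn4, Vcan, Bcan and Ncan. They were found by their gene symbol in the platform annotation, and all 10 of 10 were measured, by 13 of the 41345 transcript clusters, the array's unit for a gene. Bgn, Fmod and Ncan each had a second, dimmer transcript cluster. Affymetrix mouse gene arrays measured total RNA from ventral lumbar spinal cord in 4 MLC/SOD1G93A and 4 FVB samples. MLC/SOD1G93A mice carry the human mutant SOD1G93A, linked to amyotrophic lateral sclerosis, under a myosin light chain promoter that is active in skeletal muscle, so that the spinal cord is not the tissue in which the transgene is driven. FVB mice were the controls without the transgene. The strain label was FVB for all 8 samples, and the animals were 120 days old in both genotypes. The comparison asked which matrix genes of the spinal cord differ when mutant SOD1 is made in muscle.

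Small leucine-rich proteoglycans are secreted proteins built on leucine-rich repeats that bind collagen fibrils and set their width and spacing. In the nervous system they belong mainly to fibrous tissue, that is meninges, vessel walls and the sheaths of nerve roots, whereas the lecticans, large chondroitin sulfate proteoglycans that bind hyaluronan, form the matrix of the neuropil and the perineuronal nets. Matrilins are adaptor proteins that join collagens and proteoglycans into networks.

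The values were log2 signals after RMA, and the arrays correlated between 0.978 and 0.986 within a genotype and between 0.977 and 0.987 across genotypes. The row for mouse Sod1 averaged 10.86 ± 0.056 in MLC/SOD1G93A and 10.86 ± 0.061 in FVB samples (SD, n = 4 each) and does not check the human transgene. Motor neuron markers, which mark the sampled ventral horn, had list means of 6.73 to 7.19 in MLC/SOD1G93A and 6.76 to 7.19 in FVB samples, and 0 of 9 passed an unadjusted p of 0.05. The sex of the animals is not in the labels, and Xist, the RNA that silences an X chromosome in females, reached 10.38 or more in MLC/SOD1G93A samples 3 and 4 and FVB sample 4, and stayed at 4.50 or less in the other 5. Markers of sensory ganglion neurons, cells that lie outside the cord, had list means of 6.59, 6.63, 4.90 and 5.01 in MLC/SOD1G93A samples 1 to 4 and 4.93, 5.97, 4.89 and 6.16 in FVB samples 1 to 4. Of the motor neuron list, Prph, Isl1 and Ret were highest on the arrays with high ganglion means, MLC/SOD1G93A samples 1 and 2 and FVB samples 2 and 4. The motor neuron list means may therefore not read the ventral horn alone. With the Xist level as a covariate, Matn2 (0.77), Ogn (0.81), Dcn (0.52) and Ncan (-0.26) still passed an unadjusted limma p of 0.05 and Fmod (-0.69) did not. The part of the sensory ganglion signal was examined only by the subset of 4 arrays in which it was low. In that subset, MLC/SOD1G93A samples 3 and 4 had high Xist and FVB samples 1 and 3 had low Xist. It therefore cannot separate genotype from the Xist level. The 5 arrays with low Xist set MLC/SOD1G93A samples 1 and 2, with ganglion means of 6.59 and 6.63, against FVB samples 1 to 3. Those FVB means were 4.93, 5.97 and 4.89, so that subset cannot separate genotype from the ganglion signal.

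Among the 10 genes, Matn2, Ogn and Dcn were higher and Fmod and Ncan were lower in MLC/SOD1G93A samples at an unadjusted limma p under 0.05, while 0 of 10 passed an adjusted p of 0.05. The largest differences were those of Ogn (1.80-fold higher), Matn2 (1.67-fold higher) and Fmod (1.62-fold lower). The 3 higher genes can be set beside 3.61% of all transcript clusters that were higher at this p, and the 2 lower genes beside 3.08% that were lower. No transcript cluster of the array passed an adjusted p of 0.05 (0.0% of 41345, the lowest adjusted p being 0.359, although 2769 had an unadjusted p under 0.05, and the methods' t-test also gave 0), so each member difference stands at the unadjusted level only. At the thresholds of the study's methods, an unadjusted p under 0.05 with a fold over 1.5, 2 members were higher (Ogn and Matn2, background 0.626%) and 1 was lower (Fmod, background 0.343%). With the methods' t-test in place of limma, the 2 higher members were again past these thresholds and 0 were lower, since Fmod missed the unadjusted p. Matn2 alone was higher in every MLC/SOD1G93A sample than in every FVB sample (background 2.11%), and Ncan alone was lower in this way (background 2.1%). Ogn and Matn2 are among the genes the study itself selected on these samples, so their place in these counts is not independent evidence. The median difference of the 10 genes was 0.017 on the log2 scale, with 5 genes higher and 5 lower, against 0.0041 over all transcript clusters.

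**Figure D1:**
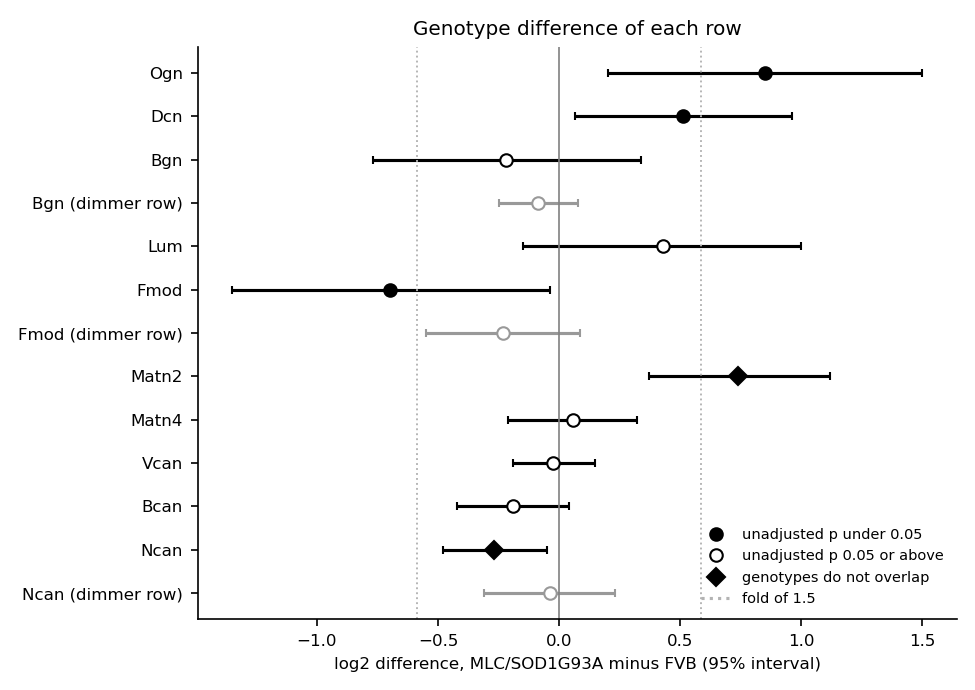
Log2 difference of each of the 10 genes, MLC/SOD1G93A minus FVB, with the 95% confidence interval from limma (n = 4 per genotype), with dimmer transcript clusters in grey, filled symbols for an unadjusted p under 0.05, diamonds where the genotypes do not overlap and dotted lines at a fold of 1.5. Matn2, Ogn and Dcn lie to the right of 0 with intervals that do not cross it, and Fmod and Ncan lie to the left, while none had an adjusted p under 0.05.

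The promoters of 3 of the genes with an unadjusted p under 0.05 are shown because these genes differed in opposite directions: Ogn was higher, and Fmod and Ncan were lower. RefSeq's GRCm38.p6 table holds promoter entries for 7 of the 10 genes. Each run is 300 bases, from 250 before to 50 after the start, written 5′ to 3′ on the strand of the gene, and capitals mark the motifs found on either strand.
Ogn, chr13:49607765-49608064, plus strand: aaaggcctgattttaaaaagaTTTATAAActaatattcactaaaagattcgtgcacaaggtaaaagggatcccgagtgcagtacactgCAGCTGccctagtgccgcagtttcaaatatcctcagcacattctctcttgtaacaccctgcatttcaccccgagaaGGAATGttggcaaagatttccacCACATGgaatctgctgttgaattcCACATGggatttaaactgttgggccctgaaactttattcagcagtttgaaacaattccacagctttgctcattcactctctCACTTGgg
Fmod, chr1:134037004-134037303, plus strand: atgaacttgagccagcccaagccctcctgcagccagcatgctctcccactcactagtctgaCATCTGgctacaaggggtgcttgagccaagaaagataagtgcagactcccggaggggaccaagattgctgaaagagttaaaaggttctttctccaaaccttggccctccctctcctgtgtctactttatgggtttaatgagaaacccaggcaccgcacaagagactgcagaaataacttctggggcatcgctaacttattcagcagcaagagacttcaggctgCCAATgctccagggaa
Ncan, chr8:70120795-70121094, minus strand: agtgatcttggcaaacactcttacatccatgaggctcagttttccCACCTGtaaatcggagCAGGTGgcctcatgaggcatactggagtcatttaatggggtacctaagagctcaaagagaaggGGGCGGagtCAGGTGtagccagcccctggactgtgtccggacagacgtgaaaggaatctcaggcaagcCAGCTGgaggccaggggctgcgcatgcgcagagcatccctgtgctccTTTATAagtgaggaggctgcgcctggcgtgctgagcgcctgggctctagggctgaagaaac

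The letters searched were TATAAA for a TATA box, which 13.6% of 32851 promoters held, and CCAAT for a CCAAT box, which 37.4% held. A GC box was searched as GGGCGG (35.7% of promoters) and an E-box as CANNTG (72.3%). Also searched were an AP-1 site as TGANTCA (7.81%), a TEAD site as GGAATG (14.7%) and a SOX site as ACAATG (12.6%). The Ogn promoter held 2 TATA matches that overlap on opposite strands, 4 E-boxes and 1 TEAD match. The Fmod promoter held 1 CCAAT box and 1 E-box, with no TATA match, and the Ncan promoter held 1 TATA match, 1 GC box and 4 E-boxes. CG dinucleotides numbered 4 in the Ogn window, 3 in the Fmod window and 9 in the Ncan window, beside a mean of 12.4 over all promoters. These matches describe the letters and not the use of a site.

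Matn2 encodes matrilin 2, an adaptor protein of the matrix that Schwann cells make and that lies in basement membranes. Its log2 signal was 7.04, 6.96, 6.47 and 6.79 in MLC/SOD1G93A samples 1 to 4, against 5.77, 5.93, 6.32 and 6.27 in FVB samples 1 to 4. The genotypes did not overlap, and the lowest MLC/SOD1G93A sample, sample 3, lay just above the highest FVB samples, 3 and 4. Matn2 averaged 6.82 ± 0.25 in MLC/SOD1G93A and 6.07 ± 0.26 in FVB samples (SD, n = 4 each), a difference of 0.74 ± 0.16 (SE; 95% interval 0.37 to 1.12) with a limma p of 0.00171 and an adjusted p of 0.583. The exact two-sided permutation test gave p = 0.0286, the smallest that 4 against 4 samples allow. On the 4 arrays with low sensory ganglion markers the difference was 0.59 and missed an unadjusted p of 0.05, as did that of Ogn at 0.82. With 2 samples against 2, and Xist also divided by genotype there, these misses do not decide the part of the ganglion signal. In bulk tissue, fewer cells of a type and less RNA per cell cannot be told apart for this or any other gene given here.

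Ogn encodes osteoglycin, also called mimecan, a small proteoglycan that binds collagen fibrils. Its log2 signal was 9.72, 9.59, 9.02 and 9.85 in MLC/SOD1G93A samples 1 to 4, against 8.15, 8.31, 9.09 and 9.24 in FVB samples 1 to 4. MLC/SOD1G93A sample 3 lay below FVB samples 3 and 4, so the genotypes overlapped, and the lowest values were those of FVB samples 1 and 2. Ogn averaged 9.55 ± 0.36 in MLC/SOD1G93A and 8.70 ± 0.55 in FVB samples, a difference of 0.85 ± 0.28 (95% interval 0.20 to 1.5) with a limma p of 0.0165 and an adjusted p of 0.684, and the exact permutation p was 0.0857.

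Dcn encodes decorin, which coats collagen fibrils and binds transforming growth factor beta. Dcn stood at 10.67, 10.35, 10.02 and 10.53 in MLC/SOD1G93A samples 1 to 4, against 9.56, 9.62, 10.23 and 10.11 in FVB samples 1 to 4. As for Ogn, MLC/SOD1G93A sample 3 lay below FVB samples 3 and 4, and FVB samples 1 and 2 were lowest. The difference of 0.51 ± 0.20 (1.43-fold, 95% interval 0.067 to 0.96) had a limma p of 0.0291, an adjusted p of 0.709, and p = 0.0857 by the exact permutation test. It missed an unadjusted p of 0.05 without FVB sample 1 (0.41), FVB sample 2 (0.43), MLC/SOD1G93A sample 1 (0.42) or MLC/SOD1G93A sample 4 (0.47), on the 4 arrays with low sensory ganglion markers (0.38), and with the methods' t-test and the replicate block (0.51 in both).

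Lum encodes lumican, a keratan sulfate proteoglycan known for the ordered fibrils of the cornea, and its gene lies next to Dcn. Lum had 6.70, 6.63, 5.79 and 6.08 in MLC/SOD1G93A samples 1 to 4, against 5.57, 5.53, 6.18 and 6.21 in FVB samples 1 to 4. MLC/SOD1G93A samples 1 and 2 were highest and FVB samples 1 and 2 were lowest, with the other 4 between them, and the difference of 0.43 ± 0.25 (95% interval -0.15 to 1.0) had an unadjusted limma p of 0.124 and an exact permutation p of 0.171. It was 0.60 and passed an unadjusted p of 0.05 without MLC/SOD1G93A sample 3, was 0.91 and passed it on the 5 arrays with low Xist, and was 0.063 and missed it on the 4 arrays with low sensory ganglion markers. The low Xist arrays differed between genotypes in ganglion markers, and the low ganglion arrays in Xist, so neither subset isolates genotype.

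Fmod encodes fibromodulin, which binds collagen and guides its cross-linking, and it was lower in MLC/SOD1G93A samples. Its values were 7.67, 6.65, 7.14 and 7.88 in MLC/SOD1G93A samples 1 to 4, against 7.90, 7.91, 8.58 and 7.74 in FVB samples 1 to 4. The overlap was that of MLC/SOD1G93A sample 4 with FVB sample 4, and MLC/SOD1G93A sample 2 and FVB sample 3 lay farthest out. Fmod averaged 7.33 ± 0.55 in MLC/SOD1G93A and 8.03 ± 0.37 in FVB samples, a difference of -0.70 ± 0.29 (95% interval -1.35 to -0.038) with a limma p of 0.0404, an adjusted p of 0.731 and an exact permutation p of 0.0571. Fmod missed an unadjusted p of 0.05 without FVB sample 1 (-0.74), FVB sample 2 (-0.74), FVB sample 3 (-0.51), MLC/SOD1G93A sample 2 (-0.47) or MLC/SOD1G93A sample 3 (-0.63), and with the methods' t-test, the replicate block (-0.70 in both), array weights (-0.60), Xist as a covariate (-0.69) and the 4 arrays with low sensory ganglion markers (-0.73). Its dimmer transcript cluster had 5.57, 5.30, 5.71 and 5.84 in MLC/SOD1G93A samples 1 to 4, against 5.65, 5.80, 6.11 and 5.78 in FVB samples 1 to 4, a difference of -0.23 ± 0.14 with an exact permutation p of 0.2.

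Bgn encodes biglycan, the closest relative of decorin, whose gene is on the X chromosome. Bgn had 9.97, 9.34, 9.81 and 10.21 in MLC/SOD1G93A samples 1 to 4, against 9.92, 9.69, 10.65 and 9.93 in FVB samples 1 to 4. The genotypes overlapped throughout and FVB sample 3 was highest. The difference was -0.22 ± 0.24 (95% interval -0.77 to 0.34) with a limma p of 0.395 and an exact permutation p of 0.486, and that of the dimmer transcript cluster was -0.087 ± 0.072 with an exact permutation p of 0.229. The sign of this difference carries little, since it was -0.014 without FVB sample 3 and -0.053 without MLC/SOD1G93A sample 2.

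**Figure D2:**
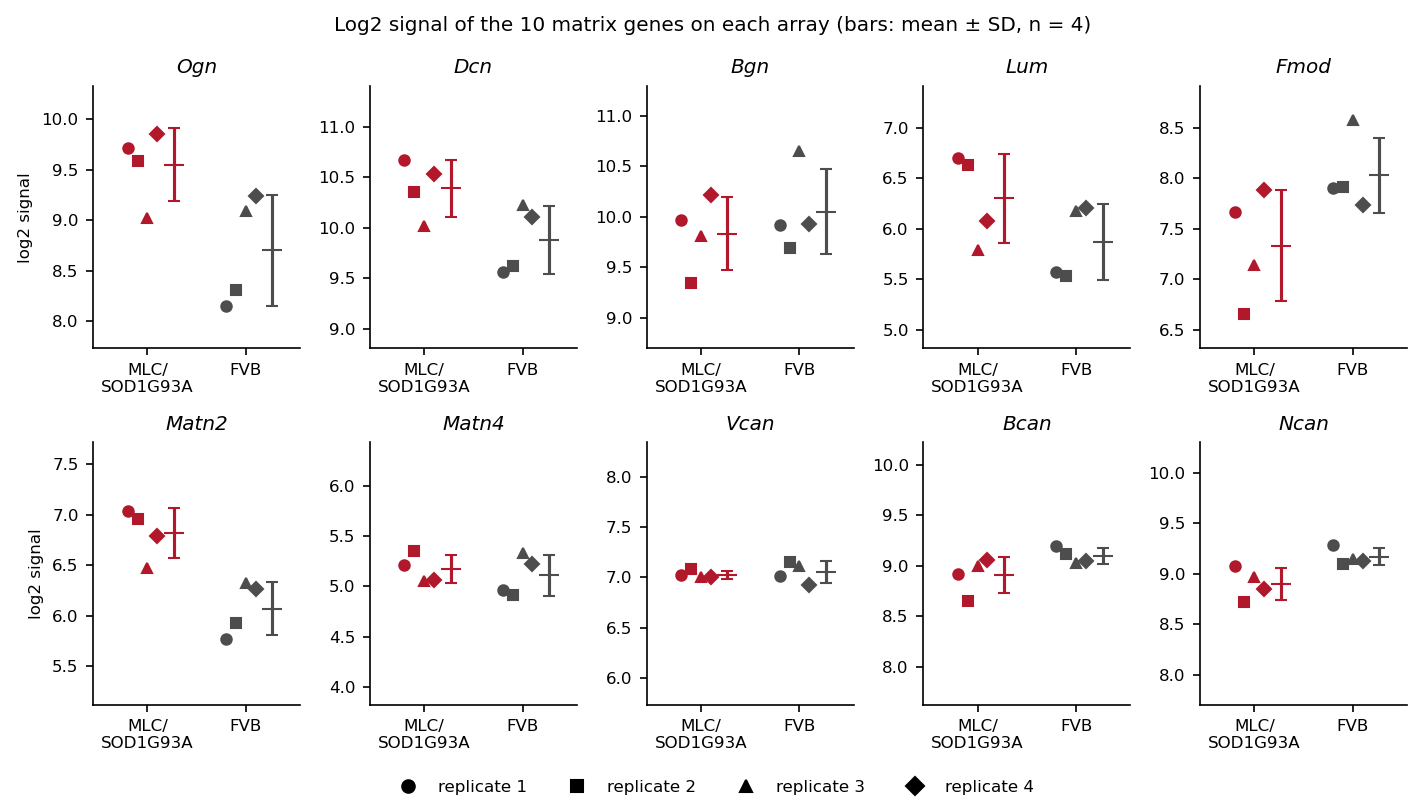
Log2 signal of the 10 genes on each array, with 4 MLC/SOD1G93A samples to the left of 4 FVB samples in each panel, a symbol for each replicate number and bars for the mean ± SD of each genotype. The points of Matn2 and Ncan do not overlap between genotypes, while those of Ogn and Dcn overlap through MLC/SOD1G93A sample 3, the lowest of its genotype for both.

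Ncan encodes neurocan, a lectican of the central nervous system that is part of perineuronal nets. Its log2 signal was 9.08, 8.72, 8.97 and 8.85 in MLC/SOD1G93A samples 1 to 4, against 9.29, 9.10, 9.15 and 9.13 in FVB samples 1 to 4. Every MLC/SOD1G93A sample was lower than every FVB sample, by as little as the gap from MLC/SOD1G93A sample 1 to FVB sample 2. The difference was -0.27 ± 0.094 (1.20-fold lower, 95% interval -0.48 to -0.052) with a limma p of 0.0208, an adjusted p of 0.686 and an exact permutation p of 0.0286. The dimmer Ncan transcript cluster did not show it, with -0.038 ± 0.12 and an adjusted p of 0.968. The brighter one missed an unadjusted p of 0.05 without FVB sample 1 (-0.23), MLC/SOD1G93A sample 2 (-0.20) or MLC/SOD1G93A sample 4 (-0.25), on the arrays with low Xist (-0.28) and on those with low sensory ganglion markers (-0.31).

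Bcan encodes brevican, a brain lectican made by glia. It had 8.92, 8.65, 9.00 and 9.06 in MLC/SOD1G93A samples 1 to 4, against 9.20, 9.12, 9.03 and 9.05 in FVB samples 1 to 4. The genotypes overlapped through MLC/SOD1G93A sample 4, and the difference of -0.19 ± 0.10 (95% interval -0.42 to 0.039) had a limma p of 0.0915 and an exact permutation p of 0.0857. It was -0.11 without MLC/SOD1G93A sample 2, -0.089 on the 4 arrays with low sensory ganglion markers, and -0.33 with an unadjusted p under 0.05 on the 5 arrays with low Xist. Vcan encodes versican, the lectican with the widest expression, and had values between 7.0 and 7.08 in MLC/SOD1G93A and between 6.92 and 7.15 in FVB samples. Its difference of -0.024 ± 0.075 (95% interval -0.19 to 0.15) is the smallest of the 10, with a limma p of 0.76 and an exact permutation p of 0.714. Matn4, a matrilin that like Matn2 joins matrix networks, ranged from 5.05 to 5.35 in MLC/SOD1G93A and from 4.92 to 5.33 in FVB samples, a difference of 0.057 ± 0.12 (limma p = 0.641, exact permutation p = 0.657). Of the 2 matrilins, then, Matn2 passed the unadjusted threshold and Matn4 did not. They were not read at the same level, since Matn4 lay at percentile 46.0 of the mean level over all rows and Matn2 at percentile 68.8.

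Ogn and Dcn set against Lum and Fmod gave a per-array contrast within the small proteoglycans. The mean log2 signal of Ogn and Dcn minus that of Lum and Fmod was 3.01, 3.33, 3.06 and 3.21 in MLC/SOD1G93A samples 1 to 4, against 2.12, 2.25, 2.28 and 2.70 in FVB samples 1 to 4. The means differed by 0.81, but the contrast sets Ogn and Dcn, already seen to be higher, against Fmod, already seen to be lower, so it restates these differences per array and the separation of the genotypes is no further evidence. Lum, grouped with Fmod, had a difference in the other direction (0.43). The mean of the 5 small leucine-rich proteoglycans minus that of the 3 lecticans was 0.61, 0.36, 0.036 and 0.61 in MLC/SOD1G93A samples 1 to 4, against -0.28, -0.25, 0.52 and 0.28 in FVB samples 1 to 4, which overlap.

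Across the 8 arrays, Ogn, Dcn and Matn2 had the strongest shared variation. Of 45 pairs of members, 3 passed an adjusted exact permutation p of 0.05 for Pearson's r, all among these 3 genes, and 0 passed for Spearman's rho. Ogn and Dcn had r = 0.97 (exact p = 0.000347, adjusted 0.0156) and rho = 0.95 (exact p = 0.00114, adjusted 0.0513). The r of Ogn and Dcn was 0.95 after the genotype means were taken out and 0.90 without the 2 arrays farthest from the median. Ogn and Matn2 had r = 0.94 (exact p = 0.00161, adjusted 0.0253) and rho = 0.83 (exact p = 0.0154, adjusted 0.138), with r = 0.83 without the 2 farthest arrays. Dcn and Matn2 had r = 0.93 (exact p = 0.00169, adjusted 0.0253) and rho = 0.90 (exact p = 0.00456, adjusted 0.103), with r = 0.82 without them. Within genotypes these pairs had r of 0.89 and 0.92, so the shared variation was not only that between the genotypes. The exact p-values are for r across all 8 arrays, in which the genotype difference of these genes takes part. Lum also varied with these 3 genes, but its pairs had adjusted exact permutation p of 0.0528: r was 0.87 with Dcn, 0.86 with Matn2 (0.95 within genotypes) and 0.84 with Ogn, and 0.67, 0.75 and 0.57 without the 2 farthest arrays. Lum and Matn4 (r = 0.84), Lum and Bcan (r = -0.78) and Matn2 and Bcan (r = -0.78) had the same adjusted p. Fmod and Bgn had r = 0.86 (exact p = 0.0108, adjusted 0.0528) and rho = 0.48 (exact p = 0.243). The r of Fmod and Bgn was 0.91 within genotypes, but 0.25 without the 2 farthest arrays, so that relation rests largely on those arrays.

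The genes most like each member over the 8 arrays, among 13731 transcript clusters with 1 symbol and a mean above the median, were named by Pearson's r as a description. Matn2 was most like Gldn (gliomedin, a Schwann cell protein of the node of Ranvier) at r = 0.992, Arhgap19 at 0.989 and Il16 at 0.986. Dcn was most like Lama2, a laminin chain of Schwann cell and muscle basement membranes, at 0.994, followed by D630003M21Rik at 0.993 and Zfand3 at 0.982. Ogn was most like D630003M21Rik at 0.983, Tiparp at 0.975 and Sntb1 at 0.974. Fmod was most like Vtn, which encodes vitronectin, at 0.988, Sec24c at 0.983 and Igf2, an insulin-like growth factor, at 0.983.

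Markers of other cells that the tissue piece can hold were read on the same arrays. The list counts stand beside 3.61% of all transcript clusters higher and 3.08% lower at an unadjusted limma p under 0.05. Schwann cell markers, of which 12 of 14 were analysed, were higher for 11 genes, 8 of them at an unadjusted limma p under 0.05, with list means of 7.74, 7.68, 7.21 and 7.57 in MLC/SOD1G93A samples 1 to 4 and 6.83, 6.89, 7.08 and 7.35 in FVB samples 1 to 4. The study named some of these genes from these samples, so their count is not independent evidence. MLC/SOD1G93A sample 3 was lowest of its genotype for this list as it was for Ogn, Dcn and Matn2. It was also lowest of its genotype for the list means of meninges (6.25) and motor neurons (6.73). The shared low array is therefore not particular to Schwann cells. Cdh19, a Schwann cell cadherin, differed by 0.47 ± 0.10 (adjusted p = 0.576). Markers of endoneurial and perineurial fibroblasts, the collagen-making cells of nerve and its sheath, were lower at an unadjusted p under 0.05 for 1 of 14 and higher for 0, with list means of 7.18 to 7.41 in MLC/SOD1G93A and 7.22 to 7.55 in FVB samples. The lower gene was Sox9 (-0.37 ± 0.12), which is also on the astrocyte list and counted there, so it is not particular to nerve fibroblasts. Pdgfra of this list is also a marker of oligodendrocyte precursors. Of the 14 genes, 6 had higher and 8 had lower means. Differences ran from -0.66 (Dpt, exact permutation p = 0.171) to 0.58 (Mfap5, exact permutation p = 0.143). Like Ogn and Dcn, Mfap5 was lowest in FVB samples 1 and 2 (6.75 and 6.41) and MLC/SOD1G93A sample 3 (6.98). The list means therefore do not show nerve fibroblasts to be unchanged.

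Of 12 meningeal markers analysed, 9 had lower and 3 had higher means, with 4 lower and 0 higher at an unadjusted limma p under 0.05. The list means overlapped between genotypes, with 6.70, 6.36, 6.25 and 6.83 in MLC/SOD1G93A samples 1 to 4 and 6.55, 6.56, 7.08 and 6.85 in FVB samples 1 to 4. FVB sample 3, highest for Fmod and Bgn, was also highest for this list. That sample was highest as well for endoneurial and perineurial fibroblasts (7.55), smooth muscle and pericytes (6.98) and oligodendrocytes (10.02). The shared highest array is therefore not particular to meninges. Slc13a4, a meningeal transporter, differed by -0.76 ± 0.32 (adjusted p = 0.733). Oligodendrocyte markers were lower for all 9 analysed, 8 at an unadjusted p under 0.05, with list means of 9.40 to 9.73 in MLC/SOD1G93A and 9.76 to 10.02 in FVB samples, and astrocyte markers were lower at this p for 3 of 11, with 8.60 to 8.97 in MLC/SOD1G93A and 8.98 to 9.07 in FVB samples. Caudal Hox genes, whose level follows the position along the cord, had means of 6.54, 6.35, 6.99 and 6.65 in MLC/SOD1G93A samples 1 to 4 and 5.86, 5.74, 5.27 and 6.52 in FVB samples 1 to 4. Of 9 analysed, 8 were higher at an unadjusted limma p under 0.05, with a median difference of 0.72, larger than that of any marker list given here, and Hoxd10 was 2.49-fold higher (adjusted p = 0.684). The part of these marker levels in the differences of the 10 genes was not tested.

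**Figure D3:**
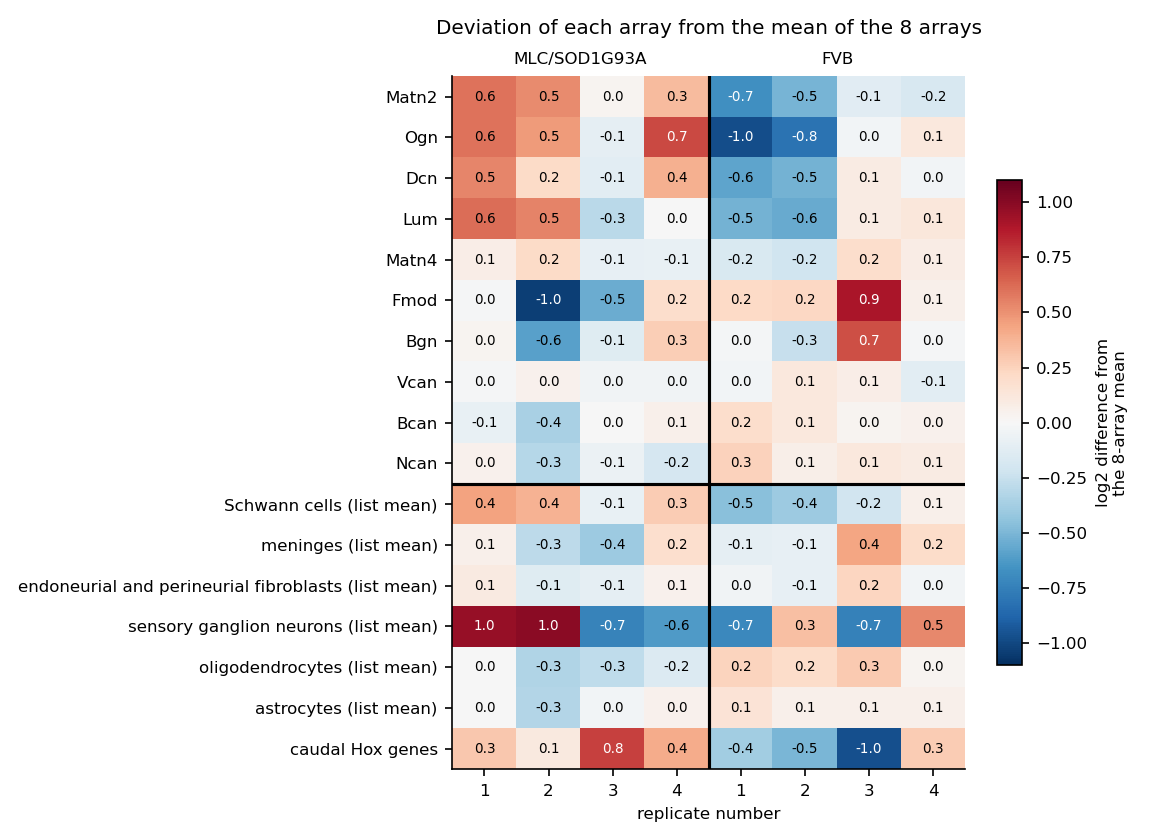
Log2 signal of the 10 genes and mean log2 signal of 7 gene lists on each array, as the difference from the mean of the 8 arrays, with the 4 MLC/SOD1G93A samples left of the 4 FVB samples and red for above and blue for below that mean. Ogn, Dcn and Matn2 share their low arrays, FVB samples 1 and 2, with the Schwann cell list. FVB samples 1 and 2 were also the lowest FVB samples for the meningeal list. Fmod and Bgn share their highest array, FVB sample 3, with the meningeal list, and this sample was also highest for endoneurial and perineurial fibroblasts.

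Partners of the 10 genes were read from 6 lists of 74 genes, of which 70 were analysed. At an unadjusted limma p under 0.05, 5 were higher and 7 were lower, 17.1% in all beside 6.7% of all transcript clusters, and their median difference was -0.037. None of these had an adjusted p under 0.05. By direction, each partner list count below stands beside 3.61% of all transcript clusters higher and 3.08% lower at the unadjusted p. Among other small leucine-rich proteoglycans, 0 of 11 passed the unadjusted p in either direction. The gene order of Ogn's neighbours is Ecm2, Aspn, Omd and Ogn, and the difference was -0.33 ± 0.20 for Ecm2 (exact permutation p = 0.286), -0.27 ± 0.16 for Aspn (p = 0.229) and 0.044 for Omd (p = 0.8). Dcn's neighbours past Lum, Kera and Epyc, differed by -0.16 (exact permutation p = 0.4) and 0.0036 (p = 0.971), and Fmod's neighbours Prelp and Optc by -0.10 (p = 0.686) and 0.15 (p = 0.229).

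Among hyaluronan and link protein partners, 3 of 12 were lower and 0 were higher at an unadjusted limma p under 0.05. Tnc, which encodes tenascin C, a hexameric glycoprotein that lecticans bind, had 5.96, 5.92, 6.21 and 6.03 in MLC/SOD1G93A samples 1 to 4, against 6.38, 6.56, 6.62 and 6.24 in FVB samples 1 to 4, with no overlap (-0.42 ± 0.11, adjusted p = 0.684). Tnr, tenascin R of perineuronal nets, had 8.79, 8.75, 8.70 and 8.69 in MLC/SOD1G93A samples, against 9.03, 8.91, 8.96 and 8.89 in FVB samples, also apart (-0.21 ± 0.066, adjusted p = 0.684). Hapln2, a link protein of the nodes of Ranvier whose gene adjoins Bcan, differed by -0.42 ± 0.13 (adjusted p = 0.684), and Hapln4, whose gene adjoins Ncan, by -0.18 (adjusted p = 0.776).

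Of 14 proteoglycan-processing genes, 2 were higher and 3 were lower at an unadjusted limma p under 0.05. Adamts4 and Adamts5 encode the aggrecanases that cut lecticans, and they differed in opposite directions. Adamts4 had 7.26, 7.05, 6.99 and 7.08 in MLC/SOD1G93A samples 1 to 4, against 7.69, 7.42, 7.65 and 7.43 in FVB samples 1 to 4 (-0.45 ± 0.10, adjusted p = 0.565). Adamts5 had 6.95, 6.70, 6.52 and 6.93 in MLC/SOD1G93A samples 1 to 4, against 6.25, 6.31, 6.20 and 6.49 in FVB samples 1 to 4 (0.46 ± 0.12, adjusted p = 0.684). For both the genotypes did not overlap. Adamts20, a related protease, was higher by 0.39 ± 0.087 (adjusted p = 0.587) and Mmp14, a membrane-bound matrix metalloprotease, was lower with -0.39 ± 0.12 (adjusted p = 0.684). Of 19 genes for glycosaminoglycan chain synthesis, Xylt1, which starts the chains, was lower (-0.27 ± 0.10, adjusted p = 0.709) and Dsel, an epimerase of dermatan sulfate, was higher (0.18 ± 0.074, adjusted p = 0.731). Of 11 fibrillar, fibril-associated and type VI collagens, 2 were higher and 0 were lower. The higher ones were Col5a3 (0.34 ± 0.085, adjusted p = 0.684) and Col14a1, a fibril-associated collagen that decorin binds (0.42 ± 0.16, adjusted p = 0.714).

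**Figure D4:**
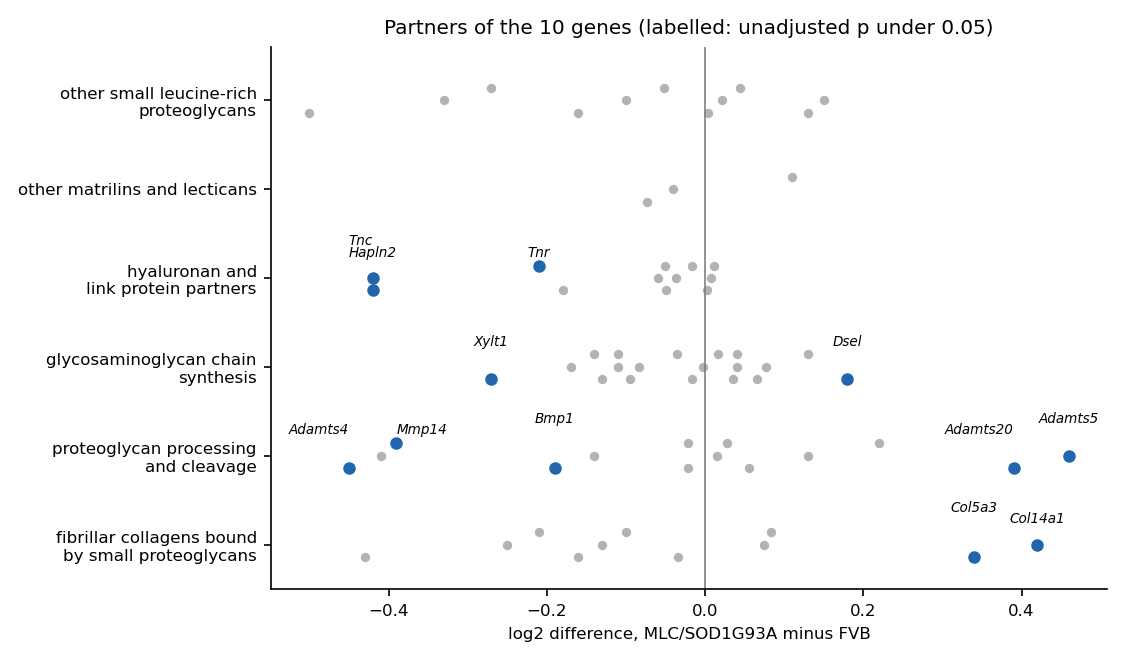
Log2 difference, MLC/SOD1G93A minus FVB, of each analysed gene of 6 lists of partners of the 10 genes, with genes at an unadjusted limma p under 0.05 in blue and named and the others in grey. Adamts4 at -0.45 and Adamts5 at 0.46 lie at opposite ends of the processing list, and the 3 named genes of the hyaluronan and link protein list all lie left of 0.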

How the data were processed

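Total RNA of 8 samples, 4 MLC/SOD1G93A and 4 FVB, was measured on 1 array each, with genotype and number from the titles. Nothing in the labels gives each sample its own animal, so p-values measure the spread between these samples, which may be technical. The deposited values are log2 signals that the authors made by RMA (Affymetrix Expression Console and RMA in the submitters' processing notes) with sketch quantile normalization. Versions, filters and genome build are not given in the sources used here. Quantile normalization hides shifts common to most transcripts. The number of arrays limits the precision.

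All 41345 transcript clusters entered 1 limma 3.58.1 fit (R 4.3.3) of genotype alone, with lmFit, eBayes and Benjamini-Hochberg adjustment over all rows, and the procedure was tested on simulated data. A gene stood for its brightest transcript cluster with exactly 1 symbol (22180 genes). The 10 genes and all lists were chosen with earlier results of these data known. Named genes were the 10 members, at most 4 per list by lowest p, the 3 genes most like Ogn, Dcn, Fmod and Matn2, and Sod1 and the sex genes. The members' neighbours Kera, Epyc, Prelp, Optc, Omd, Aspn, Ecm2 and Hapln4 were named for their position. Pdgfra was named for its place on more than 1 list, and Prph, Isl1 and Ret for their levels on the arrays with high ganglion means. Alternatives were a replicate block, the methods' t-test, a trended robust prior, array weights, median centring, quantile normalization, a filter on dim rows, Xist as a covariate, every row of a gene, and each array left out in turn. Arrays with low Xist only (2 against 3) and with low sensory ganglion markers only (2 against 2, divided by their Scn10a level) were added after seeing the data. In the former the genotypes differed in sensory ganglion markers and in the latter in Xist, so neither setting isolates genotype.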

Additional observations from a re-analysis of the deposited data

Results flagged for a closer look

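The dimmer Bgn transcript cluster had a value of 6.74 in MLC/SOD1G93A sample 3, while the other 3 MLC/SOD1G93A samples were all at 6.70. The gap was 0.86 of the range of the genotype, which is over Dixon's 95% critical value for 4 samples, although the range itself is small. Of 30 groups of 4 samples examined, this was the 1 that stood out, and chance sets apart about 1 in 20 groups.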

How the results depend on the processing

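Over the 18 alternatives, Matn2 ranged from 0.59 to 0.99 and Ogn from 0.66 to 1.14 on the log2 scale, each with an unadjusted limma p under 0.05 in 17. Dcn kept it in 11 (0.38 to 0.71), Ncan in 13 (-0.32 to -0.20) and Fmod in 8 (-0.97 to -0.47). Vcan changed sign with Xist as a covariate (0.0018) and without FVB sample 2 (0.011), and Matn4 did so without FVB sample 2 (-0.0059), without MLC/SOD1G93A sample 2 (-0.0038) and on the arrays with low sensory ganglion markers (-0.094). As each array was left out, Matn4 ran from -0.0059 to 0.13 and Vcan from -0.067 to 0.011. The members past the study's thresholds and lower numbered 0 with the replicate block, the methods' t-test, array weights, Xist as a covariate and the arrays with low sensory ganglion markers, and between 0 and 1 as each array was left out. Those higher numbered 4 on the arrays with low Xist, 0 on those with low sensory ganglion markers, and 2 to 4 as each array was left out. Members whose genotypes did not overlap numbered 4 higher and 3 lower with low Xist, where 11.5% of all transcript clusters were apart and higher and 10.5% apart and lower. They numbered 1 higher and 3 lower with low sensory ganglion markers, where the shares were 18.7% and 18.9%. As each array was left out they numbered 1 to 3 in each direction, with 3 higher without MLC/SOD1G93A sample 3 (3.61% of all) and 3 lower without MLC/SOD1G93A sample 4 (3.42% of all). Over all transcript clusters at these thresholds, the methods' t-test gave 176 higher and 91 lower, and the filter on dim rows, which tests fewer rows, gave 89 and 47. Low Xist gave 478 and 325, and low sensory ganglion markers 678 and 583 with 1 at an adjusted p under 0.05. Leaving out each array gave 271 to 379 higher and 144 to 219 lower, the highest lower count being that without FVB sample 4. The cause of these changes was not tested.

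Same-numbered samples correlated at -0.0442, 0.18, -0.0831 and 0.242 in their deviations, and 4 of 8 correlated best with their own number. These few values do not decide whether same-numbered samples share more than a number. With the replicate block Dcn (0.51) and Fmod (-0.70) missed an unadjusted p of 0.05, and 287 transcript clusters were higher and 167 lower at the study's thresholds. Matn4 lies below the median row and has no value under that filter. With 4 arrays per genotype, a gene whose interval crosses 0 is not shown to be unchanged, since any difference within its interval remains possible.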
